A study of Mus musculus with 2 samples.

Results

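Scavenger and clearance receptors are the surface and endosomal proteins with which macrophages take up modified lipoproteins, microbes, particles and dying cells. The 10 genes described here are Msr1, Marco, Cd36, Scarb1, Mertk, Axl, Trem2, Gpnmb, Cd68 and Adgre1, found by gene symbol among the 55536 genes of the tables. All 10 were found in both libraries and in both deposited quantifications. Ribosomal RNA-depleted total RNA had been sequenced from the nucleoplasmic RNA of primary macrophages grown from the bone marrow of C57BL/6J mice (BMDM). The cells had received 100 ng/ml lipid A, the TLR4-activating part of lipopolysaccharide, for 12 h. They were then washed and left for 12 h, and lipid A was given again at 100 ng/ml for 90 min. Both libraries carry this treatment and form 1 group, with 1 µg of starting RNA for replicate 1 and 500 ng for replicate 2. No untreated, singly treated or cytoplasmic library was analysed here, and no p-value was computed. The values are therefore levels in the nucleoplasmic RNA of pretreated and restimulated cells, not responses to lipid A. Sex and age were not collected, and both libraries share 1 donor entry, so the spread between them may be technical.

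The receptors differ in what they bind. Class A scavenger receptors (Msr1 and Marco) are trimers with collagen-like stalks that bind polyanions, modified lipoproteins and bacteria, and class B receptors (Cd36 and Scarb1) bind lipoproteins and fatty acids. Mertk and Axl are receptor tyrosine kinases of the TAM family. Receptors of this family bind phosphatidylserine on dying cells through a soluble bridging protein, Gas6 or, for some of them, protein S. Trem2 recognises lipids and lipoproteins and signals through the adaptor Tyrobp and the kinase Syk. Gpnmb is a glycoprotein of lysosomes, phagosomes and the cell surface, Cd68 is a heavily glycosylated protein of late endosomes and lysosomes, and Adgre1 encodes F4/80, the adhesion receptor used to identify mouse macrophages. TLR ligands such as lipid A are known to alter the expression of several of these genes in macrophages.

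All 10 receptor genes were detected in both libraries, at levels that covered a wide range. Levels are given in TPM, a share of all transcripts corrected for transcript length that allows genes to be set side by side. The level of a gene takes in all its annotated isoforms, those that do not code for protein included. Each of the 10 genes reached at least 1 TPM in both libraries, a level reached by 38.6% of 22015 nuclear-encoded protein-coding genes, whose median among those reaching it was 7.03 TPM. The median of the 10 genes was 54.4 TPM in replicate 1 and 62.0 in replicate 2. Gpnmb alone held 54.6% and 55.3% of the summed TPM of the 10 genes. The highest gene, Gpnmb, exceeded the lowest, Scarb1, 193-fold in replicate 1 and 195-fold in replicate 2. In bulk RNA of this kind, fewer cells carrying a transcript and less RNA per cell cannot be told apart.

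By mean TPM the order was Gpnmb, Adgre1, Msr1, Cd68, Marco, Trem2, Mertk, Axl, Cd36 and Scarb1, and each library alone gave this same order. Between neighbours in the order, the library values of Msr1 and Cd68 overlapped, as did those of Mertk and Axl. The other neighbours did not overlap, although with 2 libraries no test between genes was made. In the second quantification 7 of the 10 genes kept their place, while Axl stood 6th, Trem2 7th and Mertk 8th.

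**Figure D1:**
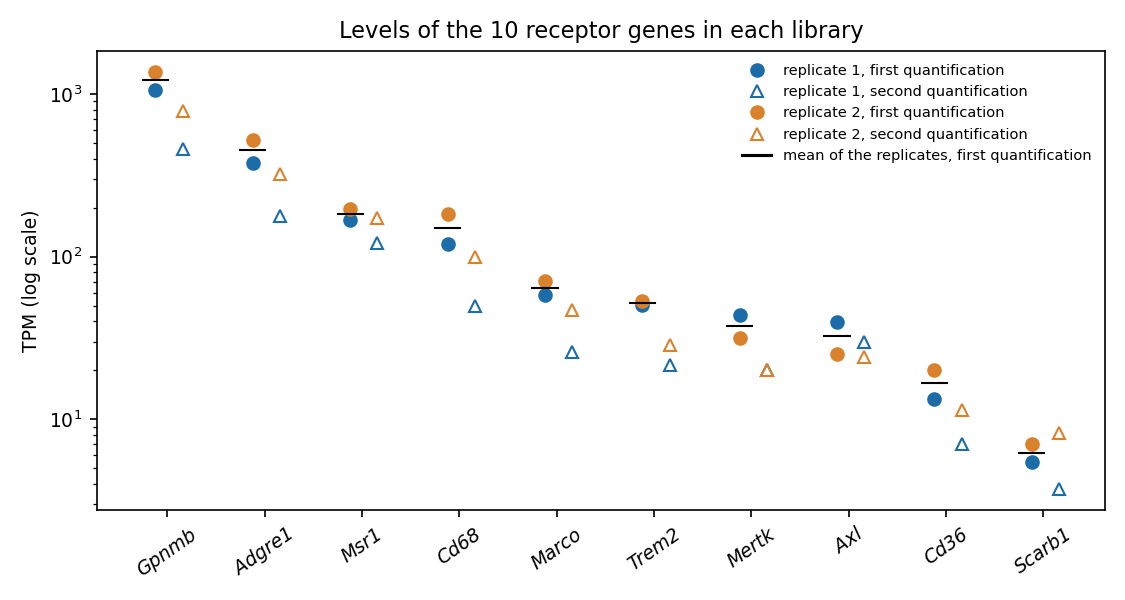
Level of each receptor gene in TPM (log axis), with replicates in blue and orange, the first quantification as filled circles, the second as open triangles and the mean of the first as a bar. Gpnmb lies at 1052 and 1370 TPM and Scarb1 at 5.46 and 7.02 TPM, and Mertk and Axl are the genes whose filled circles are higher in replicate 1.

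Among the class A receptors, Msr1, also called SR-A or CD204, was the more abundant. Msr1 (ENSMUSG00000025044.16, chr8:39581685-39642673, minus strand, mm10) measured 169 TPM in replicate 1 and 197 TPM in replicate 2 (183 ± 20.4, SD, n = 2), rank 107 among protein-coding genes. Marco (ENSMUSG00000026390.7, chr1:120474538-120505024, minus strand), a receptor for bacteria and inhaled particles, measured 58.0 and 70.4 TPM (64.2 ± 8.77, SD, n = 2), rank 461. The libraries of Msr1 all lay above those of Marco. Both genes were somewhat higher in replicate 2 on this scale.

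The class B receptors were the 2 lowest of the 10 genes. Cd36 (ENSMUSG00000002944.15, chr5:17781690-17888801, minus strand), which takes up oxidised lipoprotein and long-chain fatty acids, measured 13.3 and 20.0 TPM (16.7 ± 4.74, SD, n = 2), rank 2108. Scarb1 (ENSMUSG00000037936.15, chr5:125277087-125341094, minus strand), the receptor for high-density lipoprotein, measured 5.46 and 7.02 TPM (6.24 ± 1.10, SD, n = 2), rank 4580. Scarb1 therefore stood close to the median of detected protein-coding genes, and its values rested on 586 and 418 counts, the fewest of the 10 genes.

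Of the TAM receptors, Mertk and Axl were both detected at similar levels and Tyro3 was at or near 0. Mertk (ENSMUSG00000014361.5, chr2:128698956-128802894, plus strand), the TAM receptor best known for engulfment of apoptotic cells, measured 43.6 TPM in replicate 1 and 31.7 TPM in replicate 2 (37.7 ± 8.46, SD, n = 2), rank 875. Axl (ENSMUSG00000002602.16, chr7:25757273-25788705, minus strand), the relative with high affinity for Gas6, measured 39.7 and 25.02 TPM (32.4 ± 10.4, SD, n = 2), rank 1030. Both were lower in replicate 2 in this first quantification. The ratio of Mertk to Axl was 1.10 in replicate 1 and 1.27 in replicate 2 (1.18 ± 0.118, SD, n = 2), with Mertk the higher in each. In the second quantification the order turned, with Axl higher in each library and a ratio of 0.755 ± 0.119 (SD, n = 2). Which of the pair is more abundant over all isoforms therefore cannot be stated from these tables. The leading coding isoform Mertk-201 lay above Axl-201 in each library of both quantifications. It had 42.4 and 31.2 TPM against 29.1 and 20.7 in the first, and 18.7 and 19.0 against 9.96 and 10.6 in the second.

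Tyro3, the other member of the family, had 0 counts in replicate 1 and 2 counts in replicate 2. By expected counts and a floor of 3 counts per library, Mertk was at least 1156-fold and Axl at least 1052-fold higher than Tyro3 in replicate 1. In replicate 2 the ratio to Tyro3 was 1358 for Mertk (95% counting interval 376 to 11214) and 1073 for Axl (297 to 8859). These sizes rest on the counts: the deposited posterior mean TPM of Tyro3 was 0.330 and 0.630, on which Mertk was 129-fold and 48.3-fold and Axl 119.9-fold and 40.1-fold higher in replicates 1 and 2. Tyro3 was the lowest of the 3 receptors on each of these estimates. Of the bridging ligands, Gas6 measured 18.7 and 23.9 TPM. Pros1, which encodes protein S, measured 1.52 TPM in both libraries. Mfge8, which bridges phosphatidylserine to integrins and not to TAM receptors, measured 7.83 and 6.58 TPM. Gas6 was the highest of these ligands, and Mertk and Axl each lay above it in both libraries.

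Trem2, a receptor of the immunoglobulin superfamily, had the closest agreement between libraries of the 10 genes on the TPM scale. Trem2 (ENSMUSG00000023992.14, chr17:48346401-48354147, plus strand) measured 50.7 and 53.6 TPM (52.2 ± 2.05, SD, n = 2), rank 588. Its signalling adaptor Tyrobp (DAP12) measured 69.4 and 63.2 TPM, and lay above Trem2 in both libraries. The alternative adaptor Hcst (DAP10) was far lower, at 1.13 and 1.08 TPM from 12 and 5 counts. Syk, the kinase that Tyrobp recruits, measured 263 and 261 TPM. Adam17 and Adam10, proteases that shed Trem2 and other receptors from the surface, measured 54.1 and 47.8 TPM for Adam17 and 8.40 and 12.4 TPM for Adam10.

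Gpnmb and Adgre1 were the most abundant of the 10 genes and ranked high among all protein-coding genes of the libraries. Gpnmb (ENSMUSG00000029816.10, chr6:49036546-49070929, plus strand) measured 1052 TPM in replicate 1 and 1370 TPM in replicate 2 (1211 ± 225, SD, n = 2), rank 6 of 22015 protein-coding genes. It took 0.549% and 0.472% of all gene counts. Adgre1 (ENSMUSG00000004730.15, chr17:57358691-57483527, plus strand) measured 377 and 521 TPM (449 ± 102, SD, n = 2), rank 30. Cd68 (ENSMUSG00000018774.13, chr11:69664213-69666153, minus strand) measured 119.7 and 182 TPM (151 ± 44.1, SD, n = 2), rank 145. All 3 genes were higher in replicate 2 in TPM, and Gpnmb was above every other receptor gene in both libraries.

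The libraries differed in depth and in composition, and the direction of a small difference between them depended on the scale. Gene counts summed to 29400104 in replicate 1 and 17789543 in replicate 2. Protein-coding and long non-coding RNA together held 24.7% of TPM in replicate 1 and 34.0% in replicate 2. On TPM, 8 of the 10 receptor genes were higher in replicate 2 (Mertk and Axl were not), beside 72.2% of the 14831 genes that had 10 or more counts on average. On counts scaled by the TMM method, 6 of the 10 were lower in replicate 2, beside 49.3% of the same genes. Both shares are near those of all genes, and neither is a result about the receptors.

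On TMM-scaled counts no receptor gene differed more than 2-fold between the replicates, beside 13.4% of all genes tested. That share takes in genes down to a mean count of 10, and each receptor gene had at least 418 counts in each library. With 10 genes and a share not matched for counts, this is not a result about the receptors. The median log2 ratio of replicate 2 over replicate 1 was -0.11 over the 10 genes and 0.01 over all genes tested. Axl had the lowest ratio, a log2 ratio of -0.94 (95% counting interval -1.01 to -0.87) from 6394 and 2267 counts, and Mertk followed at -0.81 (-0.87 to -0.75) from 8606 and 3333 counts. Gpnmb lay at -0.38 (-0.40 to -0.37). The remaining 7 genes lay between -0.17 for Trem2 and 0.25 for Cd68. Counting intervals cover counting error only and not the spread between cultures.

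Mertk and Axl, lower in replicate 2 on TPM and on TMM-scaled counts of the first quantification, also came closest to the 2-fold line. When TPM was recomputed as a share of protein-coding and long non-coding RNA only, Axl passed it with a log2 ratio of -1.13, and Mertk was at -0.92. As a share of nuclear-encoded protein-coding RNA only, both stayed inside it, with -0.72 for Axl and -0.52 for Mertk. On TMM-scaled counts of the second quantification both passed it, with -1.22 for Axl and -1.07 for Mertk. On TPM of the second quantification neither did, with 29.8 and 24.1 TPM for Axl and 20.0 and 20.2 TPM for Mertk. There Scarb1 passed the line, with 3.71 and 8.25 TPM. The deposited credibility intervals of TPM, whose level is not stated, did not overlap between the replicates for 8 of the 10 genes, beside 41.2% of all genes tested. Those of Trem2 (47.2 to 53.4 TPM and 49.0 to 55.0 TPM) and Scarb1 (5.36 to 6.97 TPM and 6.91 to 9.31 TPM) overlapped. The 41.2% takes in genes down to a mean count of 10 and is not matched for counts. TPM was also higher in replicate 2 for 72.2% of the genes tested. The count of 8 is therefore not read as a trait of the receptors.

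**Figure D2:**
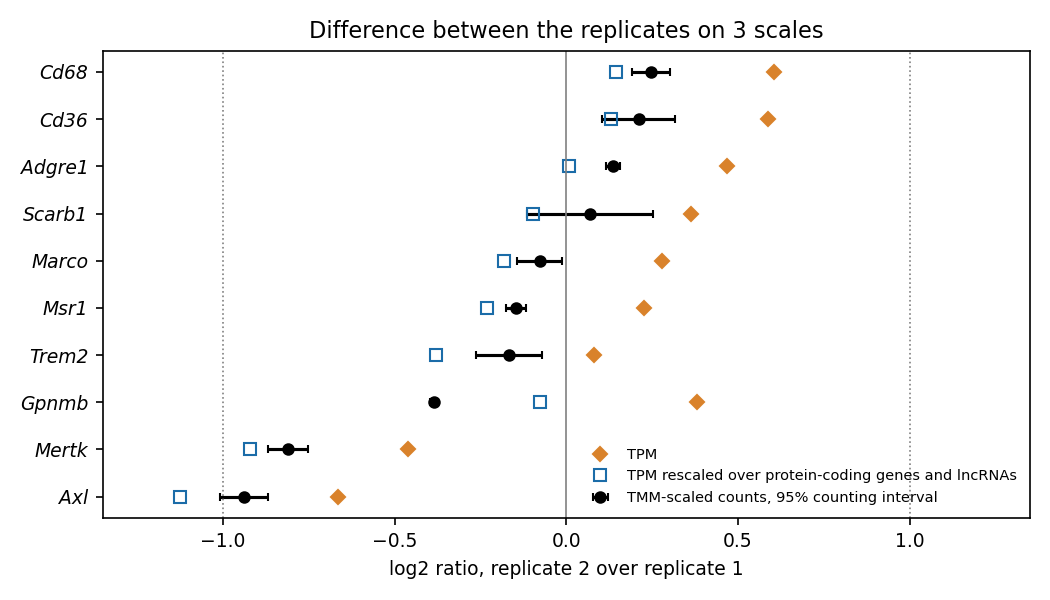
Log2 ratio of replicate 2 over replicate 1 for each receptor gene on TMM-scaled counts (black, with the 95% counting interval), TPM (orange) and TPM as a share of protein-coding and long non-coding RNA only (open blue), with dotted lines at a 2-fold difference. Mertk (-0.81) and Axl (-0.94) lie left of 0 on all 3 scales, and Gpnmb lies at -0.38 on scaled counts and 0.38 on TPM.

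Gpnmb was the gene for which counts and TPM pointed in opposite directions by the widest margin, and an isoform of it differed sharply between the libraries. Gpnmb had 161354 counts in replicate 1 and 83976 in replicate 2. Its log2 ratio was -0.38 on TMM-scaled counts and 0.38 on TPM. Every other receptor gene also had a higher ratio on TPM, such as Marco (-0.08 and 0.28) and Cd68 (0.25 and 0.60), so part of the gap is shared. The deposited effective length of Gpnmb, a mean over isoforms weighted by abundance, was 3139 bases in replicate 1 and 2364 bases in replicate 2. The isoform that differed was Gpnmb-204, a 645-base transcript annotated as a retained intron, which reads on from exon 6 of the 11 exons of the full coding isoform Gpnmb-201 into the following intron. The retained stretch annotated for it is chr6:49048102-49048351 on the plus strand of mm10. A retained-intron transcript of Msr1, Msr1-204, reads on from exon 2 of the 9 exons of Msr1-202 into chr8:39631395-39632719 on the minus strand, and into the intron after the next exon as well. The start of each stretch is printed because these are the retained-intron transcripts with the highest mean share of their gene among the 10 genes in the first quantification. In replicate 1 alone, and in the mean of the second quantification, Gpnmb-204 lay below retained-intron transcripts of Axl and Scarb1. The sequences are those of the GENCODE M21 transcripts, with the last bases of the exon in lower case and the first 60 intronic bases in capitals.
Gpnmb-204: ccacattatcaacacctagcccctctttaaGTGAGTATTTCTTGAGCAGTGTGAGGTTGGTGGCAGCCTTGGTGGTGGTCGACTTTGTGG
Msr1-204: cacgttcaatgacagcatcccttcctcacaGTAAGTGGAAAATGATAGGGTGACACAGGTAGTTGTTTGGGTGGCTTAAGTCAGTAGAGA

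Gpnmb-204 measured 33.4 TPM in replicate 1 and 376 TPM in replicate 2, from 691 and 4142 expected counts. It held 3.18% of the TPM of Gpnmb in replicate 1 and 27.4% in replicate 2. The direction was the same in the second quantification, with 5.34% and 20.95%. On TMM-scaled counts the isoform was 8.81-fold higher in replicate 2, a log2 ratio of 3.14 (95% counting interval 3.02 to 3.26). Of 37537 isoforms tested, 1.83% had a ratio as high or higher. Gpnmb-204 had the highest ratio of the 40 tested isoforms of the receptor genes, so this share is not read as a probability. The transcript shares 395 of its bases with exons of Gpnmb-201, and reads from these bases are divided between the isoforms by the authors' model. The full coding isoform Gpnmb-201 went the other way, with 862 and 736 TPM, although the second quantification had it higher in replicate 2, at 310 and 385 TPM. The other coding isoform, Gpnmb-203, measured 95.8 and 196 TPM. Leaving Gpnmb-204 out was tried after seeing the data, and dropping an isoform so much higher in replicate 2 must lower the ratio. Without Gpnmb-204, Gpnmb measured 1018 TPM in replicate 1 and 994 TPM in replicate 2, a log2 ratio of -0.03 in place of 0.38. In the second quantification the ratio without it was 0.53, so there the gene stayed higher in replicate 2.

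**Figure D3:**
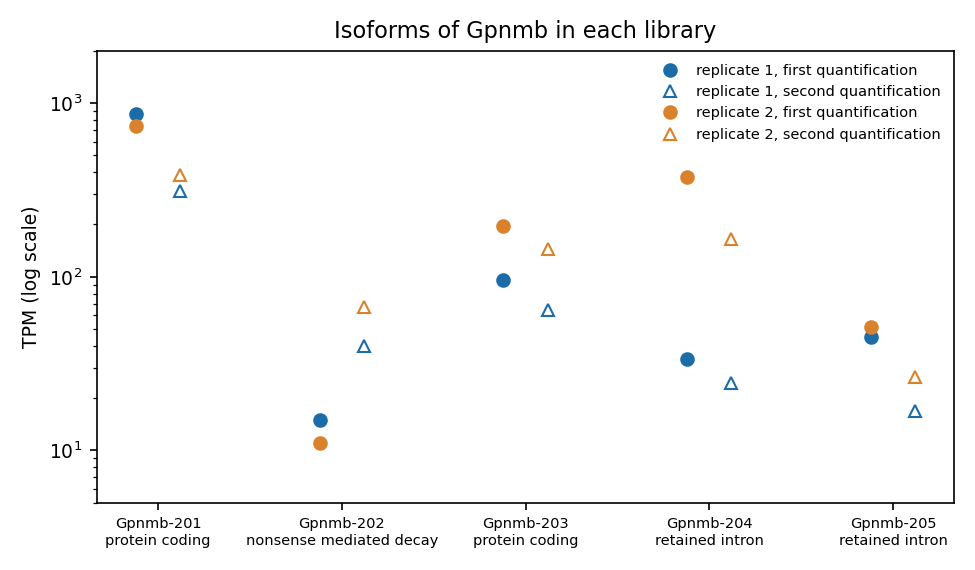
TPM (log axis) of the 5 annotated isoforms of Gpnmb in replicate 1 (blue) and replicate 2 (orange), with circles for the first and triangles for the second quantification. Gpnmb-204 lies at 33.4 TPM (replicate 1) and 376 TPM (replicate 2), and the gap has the same direction in the second quantification.

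For 3 of the 10 genes nearly all RNA was assigned to a single coding isoform. Cd68-201 held 98.9% ± 0.170 of the TPM of Cd68, Mertk-201 held 97.8% ± 1.08 of Mertk, and Marco-201 held 97.4% ± 0.0566 of Marco (SD, n = 2). Leading isoforms of the other genes held between 55.7% ± 5.33 (Msr1-202) and 78.0% ± 6.63 (Axl-201). Of the 51 annotated isoforms of the 10 genes, 40 had a mean count of at least 10. Of these, 13 differed more than 2-fold between the replicates, beside 31.1% of all isoforms tested, a share near that of the receptors' isoforms.

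Msr1 had the highest share on a retained-intron isoform of the 5 receptor genes that have one. Msr1-204 measured 57.9 TPM in replicate 1 and 90.2 TPM in replicate 2, or 34.3% and 45.7% of the gene. Over 5519 genes with both kinds of isoform the median share was 28.8% in replicate 1 and 32.6% in replicate 2, so Msr1 lay above the median in each. Scarb1 (12.6% and 17.4%) and Trem2 (3.14% and 4.51%) lay below it in each library, as did Axl (21.4% and 13.9%) and Gpnmb (7.46% and 31.2%). Shares depended on the quantification: the second gave 18.4% and 27.7% for Msr1, which is below its own median of 33.9% and 37.6%, and 59.3% and 53.5% for Axl, above it. For Msr1 the second quantification also put 38.5% and 31.0% of TPM on Msr1-205, a 421-base processed transcript that held 1.06% and 0.450% in the first.

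**Figure D4:**
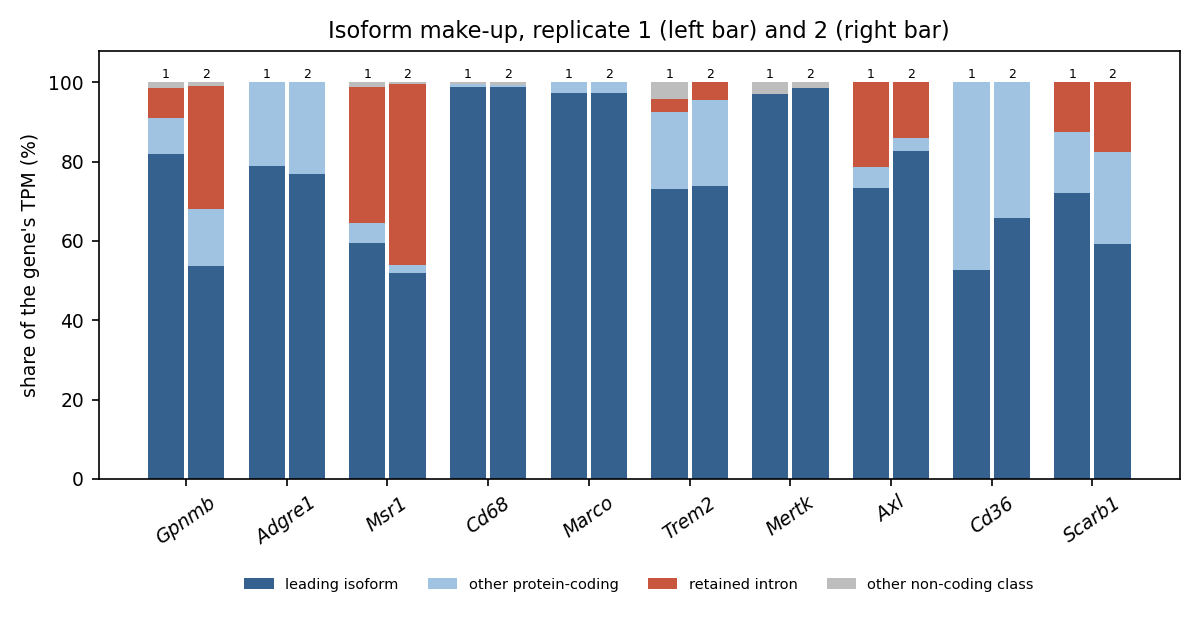
Share of each gene's TPM (percent) on its leading isoform, other protein-coding isoforms, retained-intron isoforms and other non-coding classes, first quantification, with the left bar for replicate 1 and the right bar for replicate 2. Cd68, Marco and Mertk are nearly all leading isoform, Msr1 has 34.3% and 45.7% on a retained intron, and that class grows in Gpnmb from 7.46% in replicate 1 to 31.2% in replicate 2.

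Several receptors have alternative coding forms that differ in a defined exon or exon part, and these could be followed in both libraries. In Scarb1, skipping of exon 12 gives the form known as SR-BII, whose cytoplasmic tail differs from that of SR-BI. In Axl, a short exon in the extracellular part is included or skipped. In Trem2, an upstream extension of exon 4 changes the coding sequence. The stretch of this exon or extension is printed in capitals, with flanking transcript bases in lower case, 5′ to 3′, from the GENCODE M21 transcripts on mm10. It is chr5:125281105-125281233 on the minus strand for Scarb1-201, chr7:25773099-25773125 on the minus strand for Axl-201 and chr17:48351691-48351745 on the plus strand for Trem2-202. For Trem2-202 it is the only stretch absent from Trem2-201. Scarb1-201 has 3 stretches absent from Scarb1-202 and Axl-201 has 2 absent from Axl-202, so these shares do not rest on the printed exon alone.
Scarb1-201: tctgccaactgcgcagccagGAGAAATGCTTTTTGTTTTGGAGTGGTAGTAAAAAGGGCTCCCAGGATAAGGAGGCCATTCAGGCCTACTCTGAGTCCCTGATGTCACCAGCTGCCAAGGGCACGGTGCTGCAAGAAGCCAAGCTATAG
Axl-201: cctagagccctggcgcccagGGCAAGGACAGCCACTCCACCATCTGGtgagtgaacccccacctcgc
Trem2-202: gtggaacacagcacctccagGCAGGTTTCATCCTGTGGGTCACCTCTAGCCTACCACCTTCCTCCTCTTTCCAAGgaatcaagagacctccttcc

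Scarb1-201, which contains the 129-base exon, held 72.1% of the TPM of Scarb1 in replicate 1 and 59.3% in replicate 2. Scarb1-202, which skips it, held 12.5% and 23.3%, on 71.7 and 91.0 expected counts. The exon-containing form was the higher in both libraries. In the second quantification it was again the higher, with 39.5% and 31.8% on Scarb1-201, but Scarb1-202 was nearly level, at 6.36% and 6.95%. Axl-201, with the 27-base exon, held 73.3% and 82.7% of Axl, and Axl-202, without it, had 330 expected counts in replicate 1 and 0 in replicate 2. Axl-202 was present in replicate 2 by the second quantification, at 0.449 TPM against 2.00 TPM in replicate 1, so the tables differ on its presence there. Axl-201 held only 33.4% and 43.9% of Axl in the second quantification. Trem2-201 held 73.2% and 73.8% of Trem2 and Trem2-202, with the 55-base extension and a coding region of 747 in place of 681 bases, held 19.5% and 21.7%. In the second quantification Trem2-201 held 58.9% and 67.9% and Trem2-202 held 14.3% and 20.7%, with Trem2-201 again the higher in both libraries.

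Msr1, Cd36 and Adgre1 also have several coding isoforms. Msr1 is known in a longer type I form with a cysteine-rich domain and a shorter type II form without it. Msr1-202, with 1062 coding bases, held 59.5% and 52.0% of Msr1, and Msr1-201, with 1374 coding bases, held 4.72% and 1.33%. The isoform with the shorter coding region was the higher in both libraries and in both quantifications. The 5 Cd36 isoforms detected in the first quantification share a coding length of 1416 bases and differ in their start and end positions. Among them Cd36-203 held 52.8% and 65.8% and Cd36-206 held 26.9% and 27.5% of the gene. In the second quantification Cd36-203 held 27.9% and 60.8% and Cd36-206 held 33.7% and 35.3%, so Cd36-206 was the higher in replicate 1. Cd36-205, with 427 coding bases and at 0 in the first quantification, held 27.5% and 0% in the second. Adgre1-202 held 78.9% and 76.9% of the TPM of Adgre1, and the 342-base Adgre1-204 held 14.2% and 14.0%. The share of Adgre1-204 rested on 329 and 235 expected counts, or 0.708% and 0.679% of the counts of the gene. Adgre1-202 held 94.5% and 90.5% of those counts.

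Partner genes of the receptors were mostly detected, with gaps among both receptors and engulfment genes. Of 19 other scavenger and clearance receptors 12 reached 1 TPM in both libraries. Lrp1, an endocytic receptor of the lipoprotein receptor family, measured 138 and 146 TPM, and Stab1, which clears modified lipoprotein and matrix fragments, measured 87.7 and 96.1 TPM. Both lay above Marco and below Msr1 in each library. The haemoglobin receptor Cd163 had 7 and 11 counts, the phosphatidylserine receptor Timd4 had 1 and 2 counts, and Cd209b had 0. Of 15 engulfment and signalling genes 13 reached 1 TPM; the exceptions were the adaptor Gulp1, with 0 counts in both libraries, and the integrin subunit Itgb3, at 0.240 and 0.310 TPM. Itgav and Itgb5, subunits of the integrin that binds Mfge8, measured 49.5 and 62.1 TPM for Itgav and 10.2 and 11.3 TPM for Itgb5.

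In the first quantification the 15 lipid handling genes and the 5 lysosome genes all reached 1 TPM in both libraries. In the second, 14 of the 15 lipid handling genes did, Pparg being at 0.904 TPM in replicate 1. Apoe, a lipoprotein ligand of Trem2 and product of cholesterol-loaded macrophages, measured 418 and 298 TPM, and Abca1, the cholesterol exporter, measured 99.1 and 124 TPM. Pparg, a nuclear receptor known to induce Cd36, was low at 1.43 and 1.69 TPM, and Nr1h3 (LXR alpha), known to induce Mertk and Abca1, measured 35.8 and 24.5 TPM. Lamp1, a lysosomal membrane protein like Cd68, measured 205 and 252 TPM. Mitf, a transcription factor known to control Gpnmb, measured 26.4 and 33.2 TPM, and its relatives Tfe3 and Tfeb measured 18.8 and 26.6 TPM for Tfe3 and 3.72 and 3.93 TPM for Tfeb. Across the 6 lists of partner genes, 2 of 52 tested genes lay beyond 2-fold on TMM-scaled counts, beside 13.4% of all genes, a share not matched for counts. They were the receptor Cd300lf, with a log2 ratio of -1.38, and the fatty acid binding protein Fabp4, with -1.05, both lower in replicate 2.

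**Figure D5:**
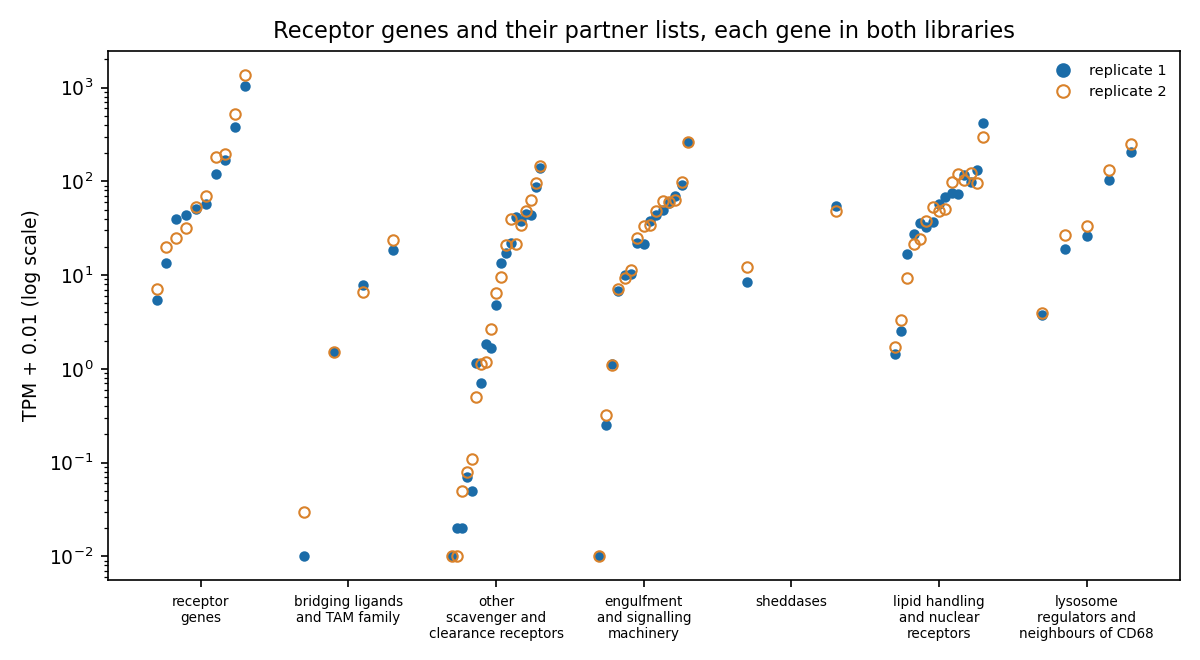
TPM + 0.01 (log axis) of each gene of the receptor group and of 6 lists of partner genes, sorted within a list, with replicate 1 as filled and replicate 2 as open circles. The receptor genes all lie above 5 TPM, whereas the other scavenger and clearance receptors reach from 0 to 146 TPM.

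Markers of other cell types were low in the first quantification. All 8 macrophage markers reached 1 TPM in both libraries, with a summed 1194 and 1626 TPM. None of 10 neutrophil (summed 1.01 and 1.32 TPM), 7 dendritic cell (2.17 and 1.80 TPM), 8 B and T cell (0.0800 and 0.160 TPM), 9 stromal and endothelial (1.06 and 1.12 TPM) or 4 adipocyte markers (0.01 TPM in each) did so. In the second quantification Cd3d (1.24 and 4.58 TPM) and Pecam1 (1.31 and 7.20 TPM) did. The adipocyte list matters for Cd36, which adipocytes express, and Adipoq, Cidec and Lep were at 0 in both libraries. Of 8 erythroid and platelet markers Pf4 alone reached it, at 11.1 and 17.4 TPM, while Hba-a1 was at 0. Cd36 is also a platelet gene, and the other platelet markers were near 0, with Itga2b at 0.270 and 0.150 TPM, Gp9 at 0.0300 and 0.120 TPM and Ppbp at 0.0200 and 0.130 TPM. The part of platelet RNA in Cd36 was not tested. A count of 0 allows up to 3 counts. None of the 10 receptor genes shares exonic bases with another annotated gene, and the expected counts of all 10 were whole numbers within 0.005, as were those of 71.8% of the 8499 protein-coding genes reaching 1 TPM.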

How the data were processed

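The study's 2 libraries (1 group, replicates 1 and 2) were quantified by the authors on mm10 with GENCODE M21, per the file headers and notes (program, versions and strand setting: not given in the sources used here). The first deposited quantification, with columns as RSEM writes them, gives expected counts per gene and isoform, with ambiguous reads divided between features by a model. The authors' TPM values are per effective length, scaled over all features, tRNA and spike-in entries included. A deposited percent gives the fraction of a gene's TPM that each isoform holds. The deposited bounds of a credibility interval, a score without a stated level, surround the posterior mean TPM and not always the TPM itself. The second deposited quantification, with columns as kallisto writes them, gives estimated counts and TPM per transcript, summed here per gene.

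The 10 genes were matched by symbol. Rows naming no gene (26345, with 0.766% and 0.272% of expected counts) were left out, and 86 genes had no row in the second quantification. Gene counts summed to 29400104 and 17789543 in the first and 39148498 and 31973596 in the second. Expected counts were rounded and scaled with TMM factors from edgeR 4.0.16 in R 4.3.3 (0.944 and 1.06) or, as an alternative, DESeq2 1.42.0 size factors. Log2 ratios used a prior count of 0.5 and genes or isoforms of mean count at least 10, and more than 2-fold counted as a difference. With 1 group no test was made. Counting intervals are exact binomial 95% intervals (Clopper-Pearson) and, like the floor of 3 counts, cover counting error only. The ratio script was tested on simulated data. Retained-intron shares are of a gene's TPM, by annotated isoform class. Sequences come from the GENCODE M21 transcripts.

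Named are all 10 receptor genes, their 5 highest isoforms, and genes of the partner and marker lists. The receptor genes and lists were chosen with earlier results of these data known. Alternatives were the second quantification, other scalings, units, filters and prior counts, posterior means and leaving out each replicate.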

Additional observations from a re-analysis of the deposited data

How the results depend on the processing

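All 10 receptor genes stayed at or above 1 TPM in both libraries with the second quantification, with rescaled TPM and with a minimum of 5 TPM. The number more than 2-fold apart between the replicates was 0 on TMM-scaled counts. It was 1 with TPM taken as a share of protein-coding and long non-coding RNA and 2 with TMM-scaled counts of the second quantification. Under the other 8 settings tried it was 0. The number of isoforms more than 2-fold apart, 13, was 8 with a mean count of at least 50, where fewer isoforms were counted, and 8 to 19 over all settings, all chosen after seeing the data. The ratio of Mertk to Axl, 1.18, was 0.755 with the second quantification; leaving out 1 replicate gave 1.10 to 1.27. On posterior mean TPM, an alternative chosen after seeing the data, the ratios to Tyro3 in replicate 2 were 48.3 for Mertk and 40.1 for Axl in place of 1358 and 1073; the second quantification gave 1556 and 1853. The cause was not tested.

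The sign of the log2 ratio between the replicates changed for 3 of the 10 genes with library totals and for 4 with TPM. It changed for 3 with TMM-scaled counts of the second quantification. With TPM as a share of protein-coding and long non-coding RNA it changed for 1 (median -0.14). With TPM as a share of nuclear-encoded protein-coding RNA it changed for 4 (median 0.27). It changed for 0 with DESeq2 size factors or a prior count of 2. The median ratio over all genes tested was 0.01 with TMM, -0.03 with DESeq2 and 0.18 with library totals, and the receptors' ratios are read against it. Absolute TPM moved by the replicate SD or more for 60 of 70 receptor and partner genes with the second quantification. The 60 take in Cd209b, which was at 0 in both quantifications and had an SD of 0. In the second quantification TPM was lower by a median 1.48-fold over protein-coding genes. Isoform shares moved by the replicate SD or more for 33 of 40 shares. With 2 replicates, leaving 1 out says nothing about stability. Among the 10 genes Scarb1 had the fewest counts, 586 and 418.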
